A study of Mus musculus with 9 samples.

Results

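The respiratory chain is read here through 90 of the 18193 genes that the arrays measured under a single gene symbol. A gene was a member when its symbol began with Ndufa, Ndufb, Ndufc, Ndufs, Ndufv, Uqcr or Atp5, or with Cox followed by a digit from 4 to 8, or was Sdha, Sdhb, Sdhc or Sdhd. The rule reads gene symbols, not expression values, and was set with earlier results of these data known. The 90 genes comprise 34 subunits of complex I, 8 complex I assembly factors (Ndufaf1 to Ndufaf8), 4 subunits of complex II, 8 of complex III, 18 of complex IV, the supercomplex factor Cox7a2l and 17 of the ATP synthase. Ndufs6 and Ndufa11 lay only on probe sets shared with other symbols and were not analysed here.

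RNA was taken from 3 kinds of mouse cells, with 3 biological replicates (A, B and C) of each. The neurons were cortical neurons cultured in Neurobasal with B27, glutamine and AraC, a nucleoside that kills dividing cells. The NSCs were native neural stem cells, and the yNSCs were neural stem cells obtained from cortical neurons through doxycycline-inducible expression of wild-type YAP, a transcriptional co-activator of the Hippo pathway. Both were cultured in DMEM/F12 with N2, EGF, bFGF, heparin and glutamine. According to the study's methods, neurons came from late embryos or newborn pups, YAP was delivered with rtTA by lentivirus, and yNSCs were passaged as spheres without doxycycline. Medium and cell type therefore cannot be told apart in any comparison with neurons. No strain, sex or pooling of animals was given in the sources used here, nor was the tissue from which NSCs came.

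Mitochondria make most of their ATP by oxidative phosphorylation. Complex I takes electrons from NADH and complex II takes them from succinate, a citrate cycle intermediate. Complex III passes them to cytochrome c, and complex IV passes them to oxygen. Complexes I, III and IV pump protons, and the ATP synthase uses the gradient. Most subunits are encoded in the nucleus, and these are the genes measured here. Neurons depend strongly on oxidative phosphorylation, whereas neural stem cells in culture are known to draw much of their energy from glycolysis.

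The labels fit the leading cell markers. Neuronal markers averaged 11.34 to 11.42 on the log2 scale in the neuron arrays, against 4.99 to 5.19 in NSCs and 5.60 to 5.76 in yNSCs. The list of stem cell and division genes averaged 8.27 to 8.47, 11.16 to 11.47 and 10.46 to 10.59 in the same order. The neuron cultures also carried RNA of other cells. All 7 microglial markers lay above background in them, with means of 8.30 to 8.92, against 3.70 to 3.76 in NSCs and 4.85 to 4.91 in yNSCs, where 2 and 1 of the 7 were near background. Astrocyte markers averaged 8.96 to 9.10 in neurons, 6.49 to 7.28 in NSCs and 9.07 to 9.26 in yNSCs. The 3′ minus 5′ difference of the Actb control probe sets, a sign of RNA integrity, was 0.03 to 0.21 in neurons, 0.56 to 0.70 in NSCs and 0.19 to 0.31 in yNSCs. The part of these differences in the results was not tested, and in bulk RNA fewer cells of a type and less RNA per cell cannot be told apart.

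yNSCs were first compared with the neurons from which they derive. The subunits that form the bulk of the chain moved little, whereas all 4 complex II genes and 5 of 8 complex I assembly factors were higher in yNSCs. These groups also differ in signal. By mean level 72 of the 90 members lay at or above the 90th percentile of all genes, with a median of 11.25 against 6.16. The 8 assembly factors had lower means, from 7.54 to 9.55. The part of signal level in the size of the differences was not tested. Of the 90 genes, 28 were called higher and 9 lower (limma, Benjamini-Hochberg adjusted p under 0.05 over all 18193 genes). That is 41.1% of the members, where 62.5% of all genes were called. The members' 31.1% called higher stood beside 34.6% of all genes, and their 10% called lower beside 27.9% of all genes. The median log2 difference was 0.11 over the members and -0.01 over all genes, and 7 members were higher by at least 2-fold against 0 lower. Subtracting a constant from an array shifts all its genes alike. On subtracting each array's median over the genes, the members' median was -0.08, with 20 higher and 15 lower, and that of all genes -0.19, with 5391 higher and 7567 lower. On subtracting each array's median over all probe sets, the medians were 0.20 and 0.08, with 36 members higher and 6 lower and 6856 and 4284 of all genes.

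**Figure D1:**
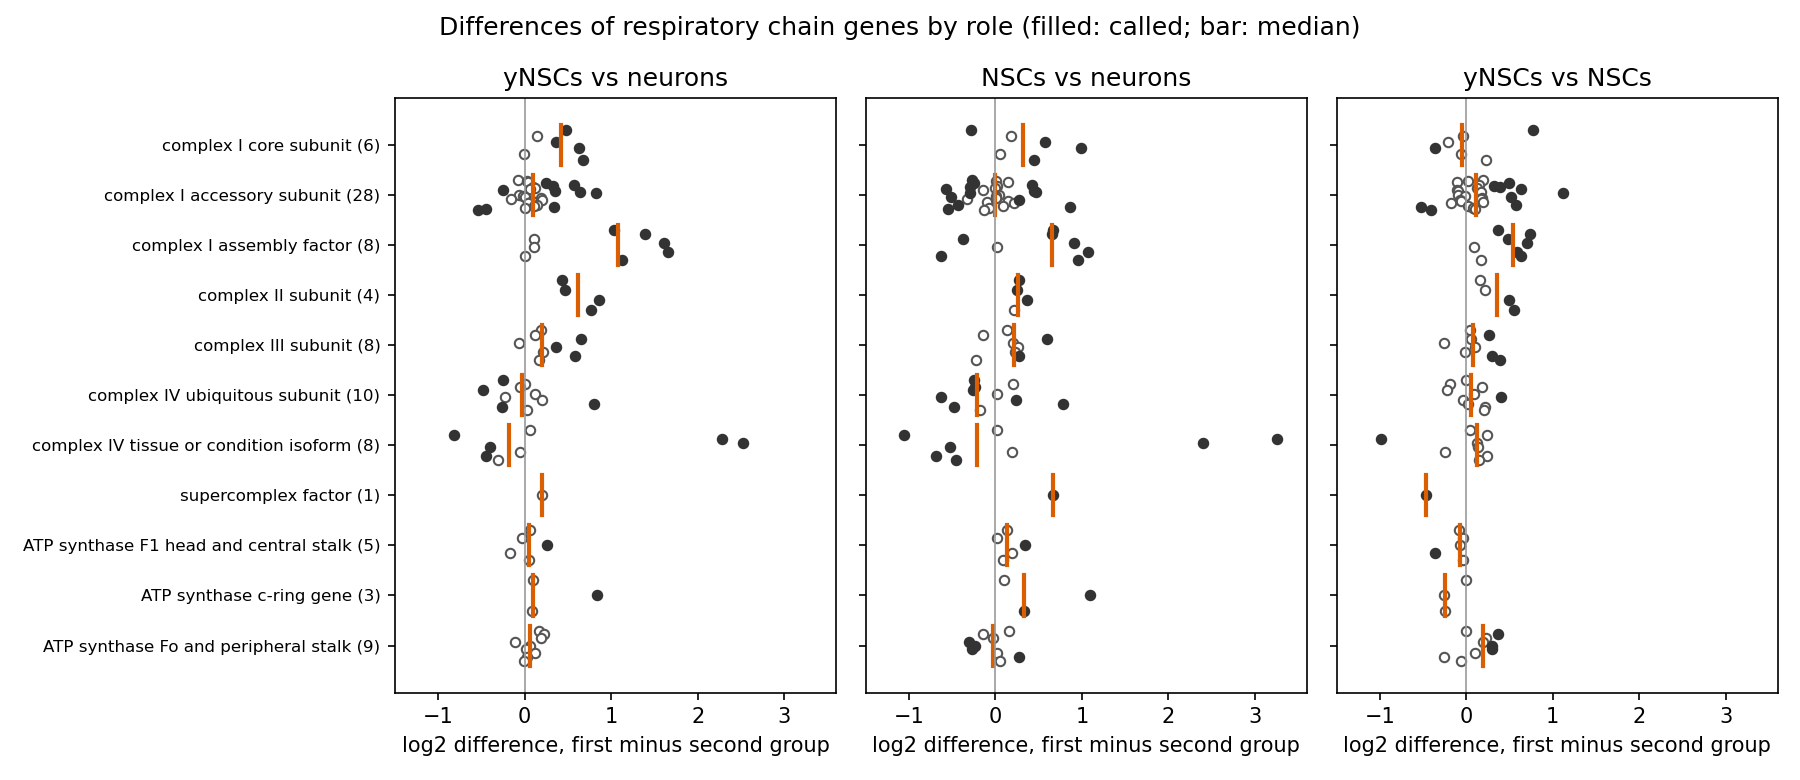
Log2 difference of each of the 90 genes (x axis) by role (y axis, number of genes in brackets) in the 3 comparisons. Filled points were called, open points were not, and the bar is the median of a role. In yNSCs against neurons, 5 of 8 complex I assembly factors and all complex II genes lie to the right of 0. The other 3 factors and the ATP synthase Fo and stalk genes lie close to it.

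Complex II, succinate dehydrogenase, links the citrate cycle to the chain. Sdhc and Sdhd encode its membrane anchors. Sdhc measured 9.51, 9.38 and 9.42 in neurons, 9.60, 10.04 and 9.76 in NSCs and 10.24, 10.34 and 10.30 in yNSCs (log2 values). The 3 groups did not overlap, and yNSCs exceeded neurons by 0.86 ± 0.12 (SE, adjusted p = 4.21e-05). A lack of overlap was common: between yNSCs and neurons it held for 12186 of all 18193 genes and 58 of the 90 members. Sdhd measured 10.05, 9.95 and 10.06 in neurons, 9.97, 10.34 and 10.39 in NSCs and 10.77, 10.83 and 10.75 in yNSCs. NSC replicate A lay among the neurons, and yNSCs exceeded neurons by 0.76 ± 0.12 (adjusted p = 0.000117).

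Sdhb, the iron-sulfur subunit, measured 11.05, 11.14 and 11.18 in neurons and 11.62, 11.57 and 11.59 in yNSCs, a difference of 0.47 ± 0.10 (adjusted p = 0.00111). Sdha, the flavoprotein that oxidises succinate, measured 10.43, 10.42 and 10.60 in neurons and 10.88, 10.95 and 10.92 in yNSCs, a difference of 0.43 ± 0.10 (adjusted p = 0.00157). The 4 calls held when any 1 array was left out. The call of Sdha was lost when each array's median over the genes was subtracted (adjusted p = 0.0534) and when its 4 probe sets were averaged (0.615). A probe set of Sdha with a mean of only 2.73 was called in the other direction.

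The Ndufaf genes encode factors that help to build complex I and are not part of the finished enzyme. Ndufaf6 measured 6.75, 6.51 and 6.63 in neurons, 7.80, 7.56 and 7.73 in NSCs and 8.30, 8.32 and 8.24 in yNSCs. The 3 groups did not overlap, with yNSCs highest and 1.66 ± 0.11 above neurons (adjusted p = 3.71e-08). Ndufaf4 measured 8.38, 8.11 and 8.31 in neurons, 9.50, 8.97 and 9.07 in NSCs and 9.89, 9.90 and 9.85 in yNSCs. It followed the same order, with yNSCs 1.61 ± 0.14 above neurons (adjusted p = 5.51e-07).

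Ndufaf2, which acts late in assembly, measured 7.13, 6.99 and 7.10 in neurons and 8.41, 8.60 and 8.37 in yNSCs, a difference of 1.39 ± 0.13 (adjusted p = 8.98e-07). Ndufaf8 rose by 1.12 ± 0.10 and Ndufaf1, an early assembly factor, by 1.03 ± 0.11. The other 3 factors were not called: Ndufaf3 differed by 0.11, Ndufaf5 by 0.11 and Ndufaf7 by 0.00. The 5 calls were kept in each of 17 alternative fits. After a second quantile normalization Ndufaf7 was also called, as lower in yNSCs (-0.32, adjusted p = 0.0152).

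**Figure D2:**
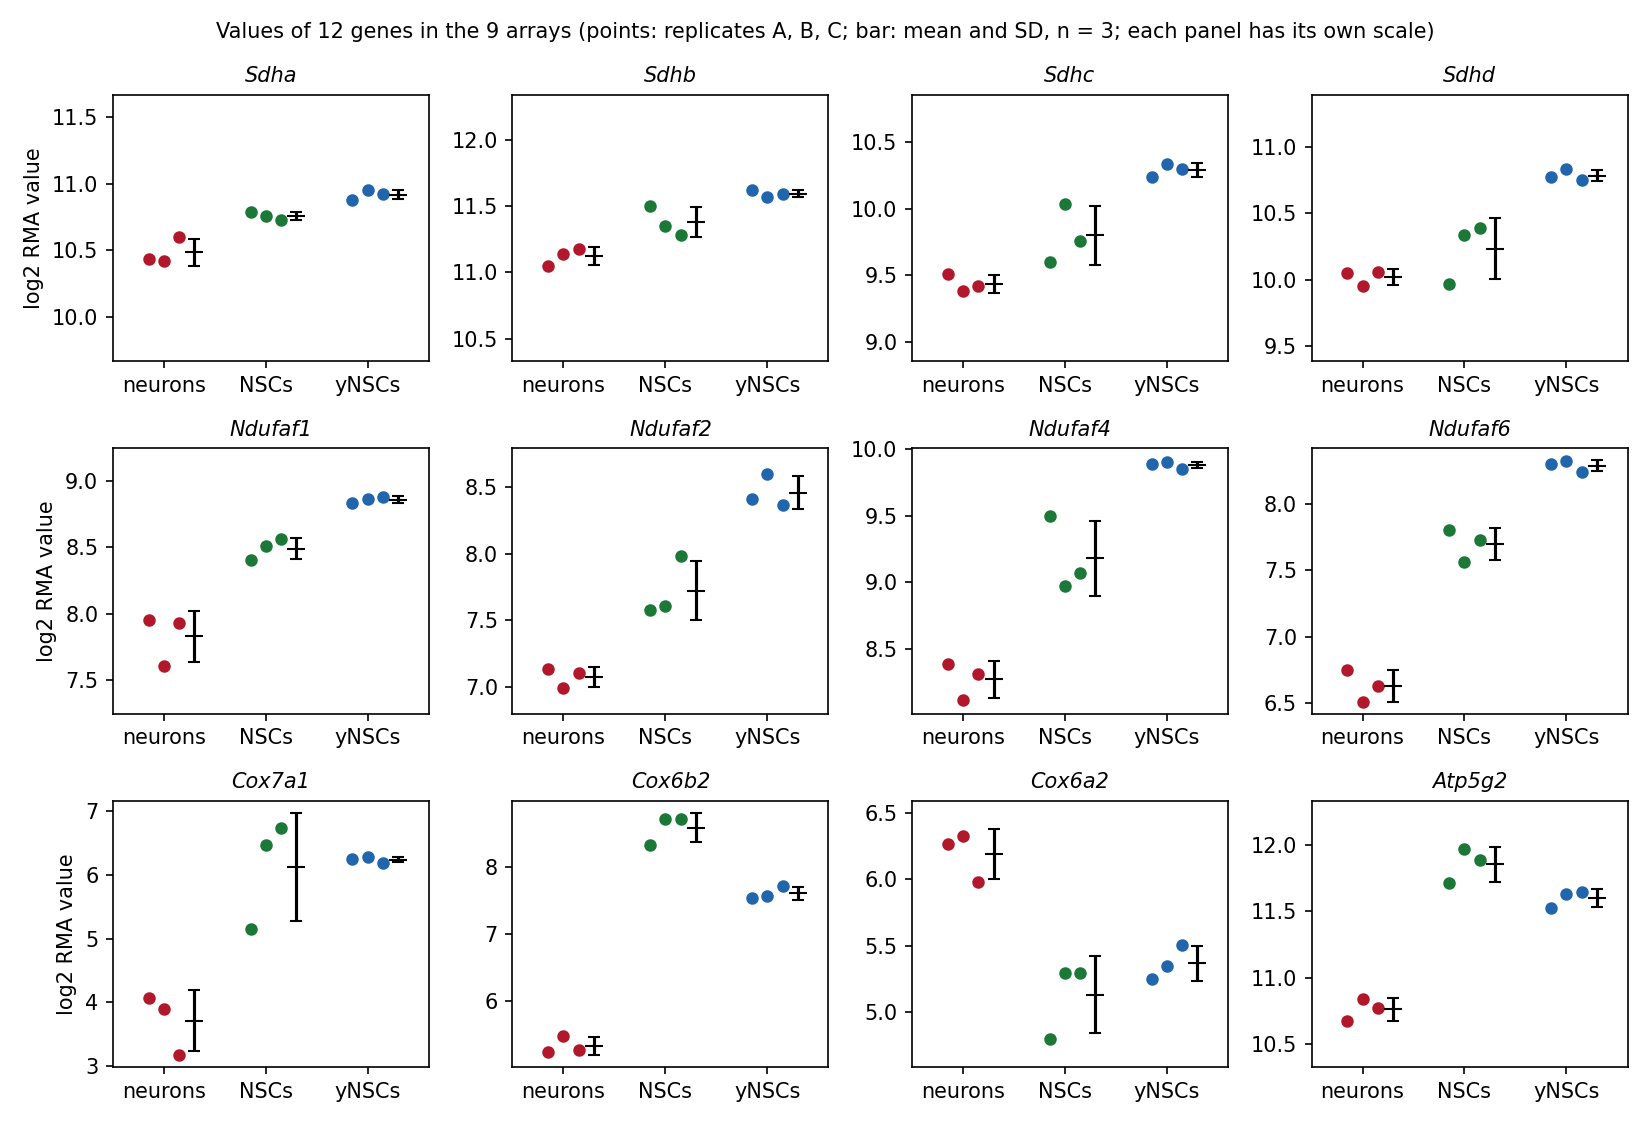
Log2 RMA values (y axis, own scale in each panel) of 12 genes in the 3 neuron, 3 NSC and 3 yNSC arrays, with the group mean and SD (n = 3). The complex II genes and assembly factors of the upper rows are highest in yNSCs, whereas the mean is highest in NSCs for Cox6b2 and Atp5g2 and in neurons for Cox6a2.

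The core subunits of complex I carry its redox centres. In yNSCs against neurons 4 of 6 (66.7%) were called higher and 0 lower, beside 34.6% and 27.9% of all genes. Ndufv2 measured 11.36, 11.27 and 11.14 in neurons and 11.93, 11.95 and 11.91 in yNSCs, a difference of 0.67 ± 0.10 (adjusted p = 5.81e-05). Ndufs8 rose by 0.63 ± 0.10 and Ndufs1, the largest subunit of the enzyme, by 0.48 ± 0.11. Ndufs7 rose by 0.37 ± 0.11, a call lost without yNSC replicate B (adjusted p = 0.0515) and under 2 of the scalings. Ndufv1, which binds NADH, was 10.25 ± 0.19 (SD, n = 3) in neurons and 10.24 ± 0.05 in yNSCs.

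Of the 28 accessory subunits of complex I, 7 were called higher (25%), 3 lower (10.7%) and 18 neither way, with a median of 0.09. Both shares were below the 34.6% and 27.9% of all genes. Ndufb1 rose by 0.83 ± 0.10, Ndufab1, the mitochondrial acyl carrier protein, by 0.64 ± 0.09 and Ndufa2 by 0.57 ± 0.09. Ndufv3 fell by 0.54, from 11.19, 11.20 and 10.99 in neurons to 10.59, 10.59 and 10.58 in yNSCs (adjusted p = 0.000523). Ndufs5 fell by 0.45 (adjusted p = 0.00347), and these 5 calls were kept in each alternative fit. On subtracting each array's median over the genes, the median over all 34 complex I subunits was -0.08 in place of 0.10, while that of all genes moved from -0.01 to -0.19, and 6 of the subunits were called higher in place of 11. The probe set that stood for Ndufb4 lay near background in neurons and NSCs and says little of that gene.

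Complex III had 3 of 8 genes higher (37.5%) and 0 lower, where 34.6% of all genes were higher and 27.9% lower. The share higher was thus close to that of all genes. Uqcrb rose by 0.65 ± 0.10 (adjusted p = 0.00013) and Uqcrh, the hinge protein near cytochrome c1, by 0.58 ± 0.09 (adjusted p = 0.000147). Uqcrc2, a core protein, rose by 0.36 ± 0.11, a call lost without neuron replicate C (adjusted p = 0.0575), yNSC replicate A (0.0512) or yNSC replicate B (0.0693). It was also lost on subtracting each array's median over the genes (0.204) and after a second quantile normalization (0.0634). The catalytic Rieske protein gene Uqcrfs1 measured 10.81 ± 0.06 in neurons and 11.02 ± 0.03 in yNSCs and was not called (adjusted p = 0.102).

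Complex IV went in both directions. Of its 10 ubiquitous subunits, 1 was called higher (10%) and 3 lower (30%), where 34.6% of all genes were higher and 27.9% lower. The share lower was thus close to that of all genes. Cox6a1 measured 13.65, 13.60 and 13.64 in neurons, 13.34, 13.38 and 13.39 in NSCs and 13.15, 13.13 and 13.17 in yNSCs. The groups did not overlap, and yNSCs lay 0.48 ± 0.09 below neurons (adjusted p = 0.000426). Cox8a fell by 0.27 and Cox4i1 by 0.25, calls that were each lost in several fits. Without yNSC replicate A the adjusted p was 0.0997 for Cox8a and 0.0753 for Cox4i1, and without yNSC replicate B it was 0.0657 and 0.0634. Cox4i1 was also not called without yNSC replicate C (0.0546), neuron replicate A (0.0537) or neuron replicate B (0.0519). Cox7c was higher by 0.81 ± 0.20 (adjusted p = 0.0032) on a probe set that read 5.90 to 7.17 over the 9 arrays. Cox5a, which showed no call, was 12.15 ± 0.04 in neurons and 12.16 ± 0.02 in yNSCs.

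Several complex IV subunits have a second gene that is used in particular tissues or conditions. Cox6b2, whose product is best known from testis, measured 5.25, 5.49 and 5.27 in neurons, 8.34, 8.72 and 8.72 in NSCs and 7.54, 7.57 and 7.73 in yNSCs. The 3 groups did not overlap, NSCs were highest, and yNSCs lay 2.28 ± 0.13 above neurons (adjusted p = 1.18e-08). Its ubiquitous counterpart Cox6b1 was 12.50 ± 0.08 in neurons, 12.52 ± 0.09 in NSCs and 12.61 ± 0.02 in yNSCs, with no call in the 3 comparisons.

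Cox7a1, the heart and skeletal muscle form of subunit VIIa, measured 4.07, 3.90 and 3.18 in neurons, 5.15, 6.47 and 6.73 in NSCs and 6.25, 6.27 and 6.19 in yNSCs. All arrays of both stem cell groups lay above all neuron arrays, with NSC replicate A lowest among them, and yNSCs exceeded neurons by 2.52 ± 0.34 (adjusted p = 3.41e-05). The neuron mean of 3.72 lay at the lower quartile of those arrays (3.67 to 3.73), so that its level there is close to background and the size of the difference is uncertain. Cox6a2, the muscle form of VIa, ran the other way, at 6.27, 6.33 and 5.98 in neurons, 4.80, 5.30 and 5.30 in NSCs and 5.25, 5.35 and 5.51 in yNSCs. It lay 0.82 ± 0.15 lower in yNSCs than in neurons (adjusted p = 0.000449). Striated muscle markers averaged 4.28 to 4.33 in neurons, 4.38 to 4.66 in NSCs and 4.20 to 4.37 in yNSCs.

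Among the remaining isoform genes, Cox8c fell by 0.44 (adjusted p = 0.00848) and Cox7b2, near background in all groups, by 0.40. The fall of Cox7b2 does not show that neurons expressed it. Its call was lost without neuron replicate B (adjusted p = 0.0532) and after a second quantile normalization (0.149). Cox4i2, Cox8b and Ndufa4l2 were not called. Ndufa4l2, a hypoxia-responsive relative of Ndufa4, averaged 5.88 ± 0.21 in neurons and 5.57 ± 0.14 in yNSCs.

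The ATP synthase had the lowest share of calls among the complexes, 2 of 17 genes (11.8%), both higher, where 62.5% of all genes were called. Atp5g2, 1 of 3 genes for the same c-ring subunit, measured 10.67, 10.84 and 10.77 in neurons, 11.71, 11.97 and 11.88 in NSCs and 11.52, 11.63 and 11.64 in yNSCs. Both stem cell groups lay above neurons without overlap, and yNSCs exceeded neurons by 0.84 ± 0.10 (adjusted p = 1.7e-05). Atp5g1 was 10.84 ± 0.08 in neurons and 10.94 ± 0.06 in yNSCs, and Atp5g3 was 12.70 ± 0.03 and 12.79 ± 0.02, with no call for either.

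The catalytic subunit gene Atp5b was 12.62 ± 0.14 in neurons, 12.64 ± 0.04 in NSCs and 12.60 ± 0.03 in yNSCs. It was not called in any of the 3 comparisons, and a missed threshold does not show that the levels are equal. Atp5c1, the central stalk gamma subunit, was called higher by 0.26 ± 0.10 (adjusted p = 0.0317). Its call was lost without neuron replicate A or B or any 1 of the 3 yNSC arrays, with adjusted p from 0.0532 to 0.0822. On subtracting each array's median over the genes it was also lost (0.499). Of the 9 Fo and peripheral stalk genes, 0 were called in this comparison, with differences from -0.11 to 0.23.

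**Figure D3:**
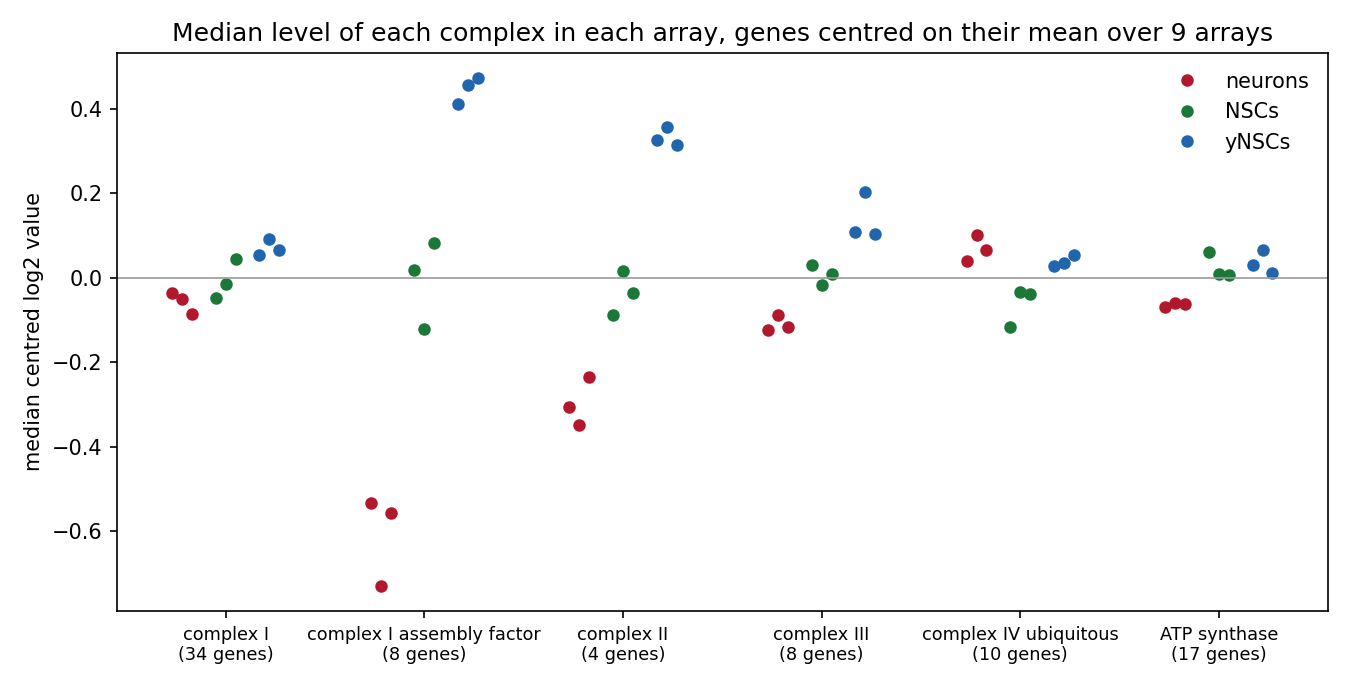
Median over the genes of each complex, after each gene was centred on its mean over the 9 arrays (y axis, log2), for every array; complex IV holds its 10 ubiquitous subunits. Complex II separates neurons (-0.35 to -0.24), NSCs (-0.09 to 0.02) and yNSCs (0.32 to 0.36), and the ATP synthase spans only -0.07 to 0.07.

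Promoter windows were read for the 74 members that a RefSeq table (GRCm38.p6) of sequences from 250 bases before to 50 bases after the gene start holds. Exact letters were searched on both strands for the cores of 3 factors known to act at respiratory chain genes. The NRF1 core GCGCATGCG occurred in 9 of 74 members (12.2%), against 3.1% of 14369 genes that the array names and 1.95% of all 27025 genes of the table. The YY1 core AAGATGGCG occurred in 7 members (9.46%, against 2.54% and 1.64%), and the ETS core CCGGAAGT of GABP in 5 (6.76%, against 6.65% and 4.31%). These are matches of letters, not binding sites.

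Of the 9 with the NRF1 letters, Atp5g2 and Ndufaf4 were called higher in yNSCs than in neurons, Cox6a1 and Ndufa8 lower, and Atp5k, Atp5l, Ndufaf5, Uqcr11 and Uqcrc1 neither way. Of the 7 with the YY1 letters, Ndufa9, Ndufaf8 and Ndufs7 were called higher, and Atp5j, Atp5j2, Ndufc1 and Ndufs4 were not called. Of the 5 with the ETS letters, Uqcrh was called higher, Cox8a lower, and Atp5h, Ndufs3 and Uqcr11 neither way. The windows of 3 of the members with the largest differences that hold a match are shown 5′ to 3′ on the strand of the gene, with the matched letters in capitals. In Atp5g2 (chr15:102670998-102671297, minus strand) and Ndufaf4 (chr4:24897833-24898132, plus strand) the NRF1 core reads on both strands, shifted by 1 base, and begins 42 and 113 bases before the start. In Ndufaf8 (chr11:120098684-120098983, plus strand) the YY1 core begins 10 bases after the first base.
Atp5g2: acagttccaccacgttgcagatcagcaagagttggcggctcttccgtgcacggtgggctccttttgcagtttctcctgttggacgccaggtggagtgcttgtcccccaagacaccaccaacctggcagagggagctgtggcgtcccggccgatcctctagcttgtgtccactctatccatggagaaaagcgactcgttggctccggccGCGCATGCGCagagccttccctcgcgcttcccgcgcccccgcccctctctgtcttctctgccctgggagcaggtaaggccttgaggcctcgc
Ndufaf4: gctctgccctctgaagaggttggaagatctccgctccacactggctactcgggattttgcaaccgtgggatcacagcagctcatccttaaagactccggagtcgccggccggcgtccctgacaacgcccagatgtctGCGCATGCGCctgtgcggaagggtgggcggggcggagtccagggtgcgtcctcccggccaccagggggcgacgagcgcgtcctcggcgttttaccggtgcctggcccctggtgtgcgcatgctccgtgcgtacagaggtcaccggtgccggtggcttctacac
Ndufaf8: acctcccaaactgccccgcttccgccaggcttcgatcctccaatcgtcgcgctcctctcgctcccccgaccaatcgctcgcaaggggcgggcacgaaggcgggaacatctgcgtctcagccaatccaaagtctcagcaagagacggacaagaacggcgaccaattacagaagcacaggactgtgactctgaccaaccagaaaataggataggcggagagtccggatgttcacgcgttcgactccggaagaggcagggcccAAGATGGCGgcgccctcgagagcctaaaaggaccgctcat

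Native NSCs were compared with neurons to give the reference for the stem cell state. Here calls went in both directions. In complex IV 22.2% were higher and 50% lower. In complex I 23.5% were higher and 26.5% lower, both below the shares of all genes. In all 27 members were called higher and 23 lower. That is 55.6% of them, where 67.4% of all genes were called. The 30% called higher stood beside 33.3% of all genes, and the 25.6% called lower beside 34.1%. The median difference was 0.05 over the members and -0.07 over all genes. After subtracting each array's median over the genes the medians were -0.08 and -0.21, with 18 members higher and 30 lower and 5456 and 7969 of all genes. After subtracting the median over all probe sets they were 0.10 and -0.02, with 31 members higher and 13 lower and 6301 and 5629 of all genes. In a fit of only the 6 arrays, 14 members were called lower.

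Of the 18 complex IV genes, 4 were called higher (22.2%) and 9 lower (50%), beside 33.3% and 34.1% of all genes. Cox6b2 was 3.26 ± 0.13 higher in NSCs (adjusted p = 4.71e-10) and Cox7a1 2.40 ± 0.34 higher (adjusted p = 4.91e-05). Without NSC replicate A, the lowest of its group for both, the 2 calls remained. Cox6c, a ubiquitous subunit, measured 12.58, 12.56 and 12.50 in neurons and 11.60, 12.01 and 12.14 in NSCs, a difference of -0.63 ± 0.13 (adjusted p = 0.00102). Cox6a2 fell by 1.06, Cox8c by 0.69, Cox8a by 0.48 and Ndufa4l2 by 0.45, and these calls were kept in each alternative fit. Other lower calls were less stable. That of Cox5b was lost in 8 of 17 alternative fits, that of Cox4i1 in 5 and that of Cox6a1 in 2. Cox7b2, near background in all groups, lost its call in 1 of 16.

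In complex I, 8 of 34 subunits were called higher (23.5%) and 9 lower (26.5%), both below the 33.3% and 34.1% of all genes. The lower ones were 5 without neuron replicate B or NSC replicate A. Ndufs8, a core subunit, measured 10.99, 11.04 and 10.88 in neurons and 12.02, 11.88 and 11.99 in NSCs, a difference of 0.99 ± 0.10 (adjusted p = 1.4e-06). Ndufc2, an accessory subunit, was 0.86 ± 0.11 higher on the probe set that stood for it, but 3 other probe sets of the gene were not called. Ndufa7 fell by 0.58, Ndufs5 by 0.55, Ndufb2 by 0.52 and Ndufb9 by 0.44.

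The assembly factors were split in NSCs, with 5 of 8 called higher (62.5%) and 2 lower (25%), beside 33.3% and 34.1% of all genes. Ndufaf6 rose by 1.07 ± 0.11, Ndufaf8 by 0.95 ± 0.10 and Ndufaf4 by 0.91 ± 0.14. Ndufaf7, a methyltransferase that acts on complex I during assembly, measured 8.19, 8.12 and 8.22 in neurons, 7.40, 7.58 and 7.65 in NSCs and 8.10, 8.26 and 8.18 in yNSCs. NSCs alone stood apart, 0.63 ± 0.10 below neurons (adjusted p = 0.000148). Ndufaf3 fell by 0.37 (adjusted p = 0.00642).

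Complex II differences from neurons lay between 0.21 and 0.36 in NSCs. Sdhc was higher by 0.36 ± 0.12 (adjusted p = 0.017), Sdha by 0.28 ± 0.10 (0.0215) and Sdhb by 0.25 ± 0.10 (0.0373), while Sdhd did not pass (0.21 ± 0.12, adjusted p = 0.133). Of these calls 0 remained without NSC replicate B, 1 remained without neuron replicate A or neuron replicate B, and 0 remained after quantile normalization or after subtracting each array's median over the genes. Complex III had 2 of 8 genes higher (25%) and 0 lower, where 33.3% of all genes were higher and 34.1% lower. Uqcrb was higher by 0.60 ± 0.10 (adjusted p = 0.000246). The other, Uqcrh, lost its call without NSC replicate C (adjusted p = 0.0682) and on subtracting each array's median over the genes (0.202).

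In the ATP synthase, 4 of 17 genes were called higher (23.5%) and 3 lower (17.6%), both below the 33.3% and 34.1% of all genes. Atp5g2 was higher by 1.09 ± 0.10 (adjusted p = 1.43e-06), which is 2.13-fold. The 3 lower genes, Atp5k, Atp5l and Atp5md, belong to the membrane part, and their differences were -0.30, -0.24 and -0.27. Of these, 0 were called without NSC replicate B and 1 without neuron replicate B. Cox7a2l, which helps to join complexes III and IV into supercomplexes, measured 10.51, 10.55 and 10.65 in neurons, 11.18, 11.21 and 11.30 in NSCs and 10.70, 10.80 and 10.81 in yNSCs. It was 0.66 ± 0.10 higher in NSCs than in neurons (adjusted p = 5.54e-05).

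yNSCs were then set against native NSCs, which grew in the same medium. Of the complex I assembly factors 6 of 8 were higher in yNSCs, as were the complex II anchors, and Cox6b2 and Cox7a2l were lower. Of the 90 members 23 were called higher and 6 lower, 32.2% in all where 39.3% of all genes were called. The 25.6% called higher stood beside 21.3% of all genes and the 6.67% called lower beside 18% of all genes. The median difference was 0.10 over the members and 0.07 over all genes. Without yNSC replicate B, 14 members were called higher, and on subtracting each array's median over the genes the split was 19 higher to 10 lower, and 3371 to 3531 over all genes.

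Of the 8 assembly factors, 6 were called higher (75%) and 0 lower, beside 21.3% and 18% of all genes. Ndufaf2 was higher by 0.74 ± 0.13 (adjusted p = 0.000498), Ndufaf4 by 0.70 ± 0.14 (0.00147), Ndufaf7 by 0.64 ± 0.10 (0.000339) and Ndufaf6 by 0.59 ± 0.11 (0.000739). Ndufaf3, at 8.21, 8.35 and 8.43 in NSCs and 8.80, 8.83 and 8.82 in yNSCs, was higher by 0.49 ± 0.10 (0.00229). The call of the remaining gene, Ndufaf1 (0.37 ± 0.11), was lost on leaving out NSC replicate A or any 1 of the yNSC arrays, with adjusted p from 0.0502 to 0.0621.

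Sdhd was higher by 0.55 ± 0.12 (adjusted p = 0.00282) and Sdhc by 0.49 ± 0.12 (0.00544), whereas Sdhb (0.22 ± 0.10) and Sdha (0.16 ± 0.10) were not called. Among complex I subunits 8 of 34 were higher (23.5%) and 3 lower (8.82%), beside 21.3% and 18% of all genes. The share higher was thus close to that of all genes. Ndufb1 measured 6.74, 6.81 and 6.81 in neurons, 6.40, 6.52 and 6.56 in NSCs and 7.67, 7.72 and 7.46 in yNSCs. The yNSC arrays stood above all the others, 1.12 ± 0.10 over NSCs (adjusted p = 3.58e-06), and this was the only member that differed from NSCs by at least 2-fold. It rests on 1 probe set that read far below most complex I subunits. Whether that probe set reports the main transcript of Ndufb1 was not tested. Ndufs1 measured 9.80, 10.08 and 10.08 in NSCs and 10.82, 10.75 and 10.69 in yNSCs, 0.77 ± 0.11 higher (adjusted p = 0.000104). Ndufa7 rose by 0.64 ± 0.12, Ndufb9 by 0.58 ± 0.10 and Ndufb2 by 0.52 ± 0.10.

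The lower calls were Cox6b2 (-0.98 ± 0.13), Ndufc2 (-0.52 ± 0.11), Cox7a2l (-0.46 ± 0.10), Ndufv3 (-0.40 ± 0.10), Atp5d (-0.36 ± 0.12) and Ndufs8 (-0.36 ± 0.10). As the mean of all probe sets, Ndufc2 (adjusted p = 0.0784) and Ndufs8 (0.105) were not called. Atp5d encodes the delta subunit of the central stalk. Its call was lost without NSC replicate A (adjusted p = 0.0743), NSC replicate B (0.0573), yNSC replicate A (0.0833) or yNSC replicate B (0.0712). The 3 calls among complex III genes and the 3 higher calls in the ATP synthase also changed on leaving out single arrays. Without yNSC replicate B they were 1 and 0, without yNSC replicate C 1 and 0, and without NSC replicate B 1 and 1. Without NSC replicate A or yNSC replicate A, 1 of the ATP synthase calls was left. The call of Uqcrq (0.39 ± 0.11) held without any 1 array but not as the mean of all probe sets (adjusted p = 0.157). Complex IV had 1 gene higher, Cox6c (0.40 ± 0.13), which was not called without NSC replicate A or any 1 of the yNSC arrays (adjusted p from 0.0642 to 0.0898). As the mean of all probe sets Cox6c was also not called (0.0542).

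**Figure D4:**
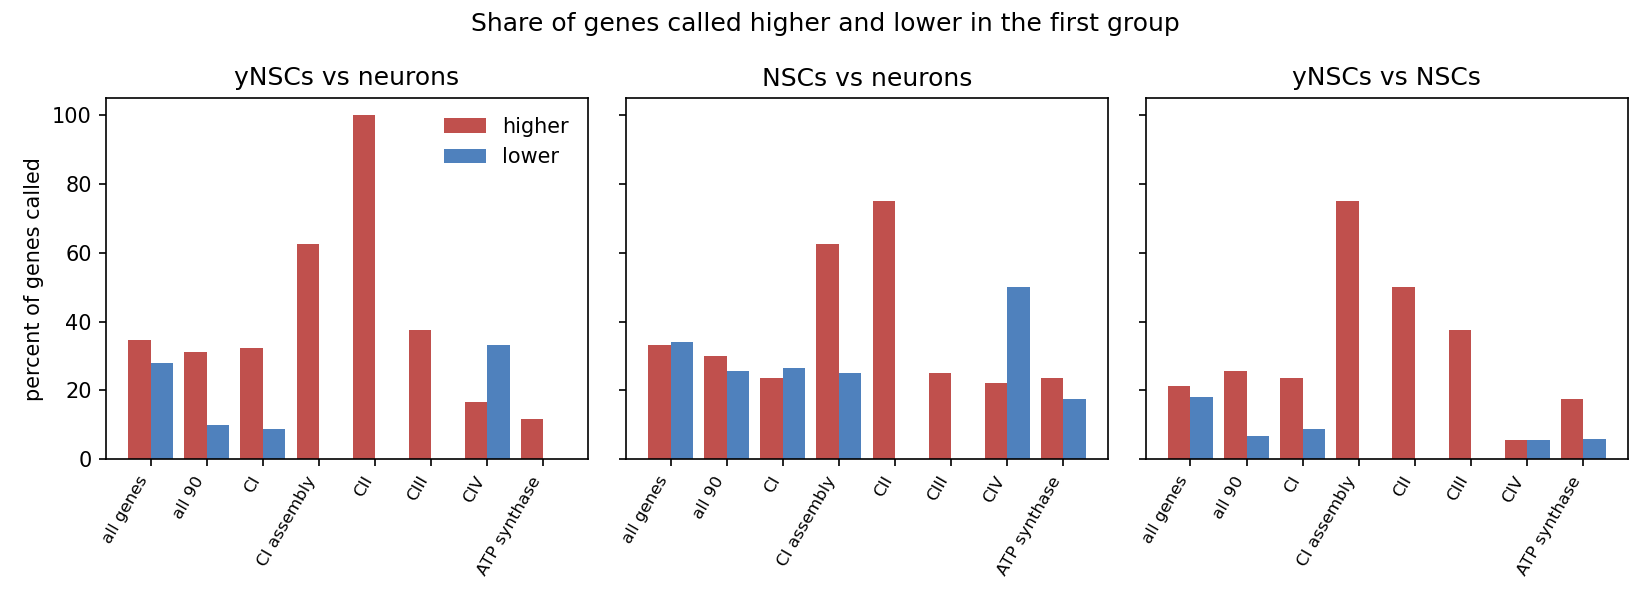
Percent of genes called higher (red) and lower (blue) in the first group of each comparison, for all 18193 genes, all 90 members and each complex (CI to CIV; CIV with its 8 isoform genes). All 4 complex II genes were called higher in yNSCs against neurons, and the share of members called lower was below that of all genes in each panel.

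The share of all genes called depends on how many genes of low signal are counted. With the 40% of genes of lowest mean left out, 86 members stayed. In yNSCs against neurons 29 of these were higher and 9 lower, that is 33.7% and 10.5%, where 52.2% and 26.6% of the 10916 genes kept were called. The median difference was 0.12 over these members and 0.36 over the genes kept. In NSCs against neurons 29 and 22 were called, beside 51.6% and 28.3% of genes, and in yNSCs against NSCs 23 and 10, beside 28.7% and 28.1%. The 3 comparisons share their arrays, so their calls are not independent of each other.

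Genes outside the symbol rule that assemble or feed the chain were also read. Their counts stand beside 34.6% of all genes higher and 27.9% lower in yNSCs against neurons. Without the 40% of genes of lowest mean these shares were 52.2% and 26.6%. For NSCs against neurons they were 33.3% and 34.1%, or 51.6% and 28.3% without those genes. For yNSCs against NSCs they were 21.3% and 18%, or 28.7% and 28.1%. Of 19 complex IV assembly genes, 13 were higher and 1 lower in yNSCs against neurons, with a median of 0.83. Higd1a, a hypoxia-inducible factor that binds complex IV, was higher by 2.58 ± 0.15, Sco1, which delivers copper to the enzyme, by 2.14 ± 0.17 and Coa5 by 1.55 ± 0.11. Higd2a was the one that was lower (-0.66 ± 0.13). In NSCs against neurons 12 were higher and 2 lower, and in yNSCs against NSCs 6 and 1.

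Of 7 further complex I assembly genes 5 were higher and 0 lower, led by Timmdc1 (1.97 ± 0.15) and Nubpl (1.84 ± 0.16), an iron-sulfur carrier. NSCs gave the same counts against neurons, and yNSCs against NSCs gave 3 and 0. Of 8 complex II and ATP synthase assembly and regulation genes, 7 were higher, led by Sdhaf3 (2.03 ± 0.12) and Atpaf1 (1.75 ± 0.14). The ATP synthase inhibitor gene Atpif1 was not called (0.05 ± 0.12). The counts were 6 higher and 1 lower in NSCs against neurons and 5 and 1 in yNSCs against NSCs. Of 8 genes for cytochromes c and c1 and complex III assembly, 6 were higher and 1 lower, with cytochrome c itself, Cycs, higher by 1.03 ± 0.12. There were 6 and 2 in NSCs against neurons and 3 and 0 in yNSCs against NSCs.

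Of 21 genes of the citrate cycle and pyruvate dehydrogenase, 13 were higher in yNSCs than in neurons and 0 lower, with a median of 0.45. Suclg2, of the GTP-forming succinyl-CoA synthetase, was higher by 2.24 ± 0.13, and Idh2, the NADP-dependent isocitrate dehydrogenase, by 1.81 ± 0.10. Pdk1, a kinase that inhibits pyruvate dehydrogenase, rose by 1.59 ± 0.19. NSCs against neurons gave 12 higher and 3 lower, and yNSCs against NSCs 6 and 6.

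Among 18 regulators of mitochondrial biogenesis, 14 were higher in yNSCs than in neurons and 3 were lower. Tfb1m, a mitochondrial rRNA methyltransferase, rose by 1.97 ± 0.17, Gabpb1, a subunit of the factor GABP, by 1.48 ± 0.14 and the coactivator gene Pprc1 by 1.47 ± 0.23. Esrrg (-1.42 ± 0.13), Ppargc1b (-1.23 ± 0.18) and Sirt3 (-1.22 ± 0.11) were lower, and the coactivator gene Ppargc1a was not called (-0.13 ± 0.11). NSCs against neurons gave 14 higher and 2 lower, where 33.3% and 34.1% of all genes were called. In contrast, yNSCs against NSCs gave 1 higher and 7 lower, where 21.3% and 18% of all genes were called. Only 1 of the mitochondrially encoded subunits was measured under a single symbol, ND5 of complex I. It was lower in yNSCs than in neurons by 0.31 ± 0.12 on the log2 scale (adjusted p = 0.0446), lower in NSCs than in neurons by 1.34 ± 0.12 and higher in yNSCs than in NSCs by 1.03 ± 0.12.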

How the data were processed

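Total RNA was extracted with Trizol, labelled as biotinylated cRNA and hybridised to Affymetrix mouse arrays, 9 in all. The authors summarised each probe set with RMA and deposited the results as log2 values. Which RMA version was used, and on which arrays together, is not given in the sources used here. Values ran from 1.73 to 14.46 and were used as deposited, and the number of arrays limits the precision.

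The arrays held 45101 probe sets, of which 64 controls were dropped. Of the rest, 34945 had 1 symbol in the array's annotation and 932 had several. The probe set of highest mean over the 9 arrays stood for each gene. The 90 members, which have 179 probe sets, all matched RefSeq (GRCm38.p6) by gene ID. A gene is called near background in a group whose mean lies below the mean of its arrays' lower quartiles over all probe sets (3.42 to 3.73 per array).

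A model of 3 group means over the 9 arrays was fitted in R 4.3.3 using limma 3.58.1 (6 residual and 5.59 prior degrees of freedom). Tests were two-sided, with Benjamini-Hochberg adjustment over 18193 genes and calls under 0.05. An exact permutation test of 3 against 3 arrays cannot give a p below 0.1. Differences are log2, first minus second group, with the moderated SE. In simulated data of 18193 genes with 200 changed in yNSCs against neurons, 50% of 1.5-fold, 86% of 2-fold and 100% of 4-fold changes were recovered. In the real data 62.5% of genes were called in this comparison. The Benjamini-Hochberg threshold depends on the share of changed genes, so these rates do not give the sensitivity in the real data. Replicates are biological per the labels. The replicate letters were not used as pairs, since same-letter arrays of different groups deviated from their means with correlations from -0.105 to 0.1.

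Members and lists were chosen with earlier results of these data known. Values in every array were given for a part of the highest and lowest called differences of each role, the isoform pairs and the complex II genes, and for other lists up to 3 called and 2 uncalled genes. The few genes of those lists that were lower were named after their values were seen. Alternatives were another scaling, filter, probe set rule, array set, variance prior or fold minimum, the replicate block and leaving out each array. Subtraction of each array's median over the genes was added after seeing the data. The lists of cell markers also held oligodendrocyte precursor and endothelial and mural genes.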

Additional observations from a re-analysis of the deposited data

How the results depend on the processing

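The limits are 3 arrays per group, values already normalized by RMA, and small differences whose sign moves with the scaling of all genes. Of the calls in yNSCs against neurons, 20 of 28 higher and 5 of 9 lower ones were kept in all 17 refits, in NSCs against neurons 17 of 27 and 11 of 23, and in yNSCs against NSCs 13 of 23 and 3 of 6. In this order of comparisons, the members' median was 0.202, 0.103 and 0.142 after subtracting each array's median over all probe sets, -0.075, -0.083 and 0.052 after subtracting its median over the genes, which was chosen after seeing the data, and 0.04, 0.0 and 0.073 after a second quantile normalization. The median of all genes moved from -0.007, -0.073 and 0.067 to -0.193, -0.21 and 0.017 under the subtraction over the genes, where 15 and 10 members were called lower in the first and last comparison. In NSCs against neurons, 13 were lower after subtraction over all probe sets and 14 with only the 6 arrays, and the median was 0.028 for the mean of all probe sets. In yNSCs against NSCs, 10 were lower without the 40% of genes of lowest mean and 11 with a variance trend and robust prior. With a 2-fold minimum 7 were higher and 0 lower, 4 and 1, and 1 and 0. Of the 179 probe sets taken singly, 61 were higher and 16 lower, 56 and 41, and 41 and 12. The cause was not tested.

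Leaving out 1 array at a time gave 23 to 31 higher, 6 to 10 lower and a median of 0.101 to 0.127 in yNSCs against neurons. NSCs against neurons gave 23 to 28, 16 to 21 and 0.044 to 0.104, and yNSCs against NSCs gave 14 to 23, 5 to 7 and 0.075 to 0.141. With the replicate letter as a replicate block the counts were 27 and 9, 25 and 18, and 21 and 6. Some members that were not called were called in the opposite direction elsewhere. As the mean of all probe sets these were Atp5g1 (-0.332) and Ndufb2 (-0.233) in yNSCs against neurons, Ndufs4 (0.22) in NSCs against neurons and Uqcr10 (-0.262) in yNSCs against NSCs. After quantile normalization they were Ndufaf7 (-0.318) in yNSCs against neurons and Ndufaf5 (-0.36) in NSCs against neurons.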

Other observations

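Carriers that move ADP, phosphate and other substrates across the mitochondrial membranes and coenzyme Q genes were read as further lists. In yNSCs against neurons, 4 of 11 measured carriers were higher and 3 lower, shares close to those of all genes (34.6% and 27.9%). Slc25a13, an aspartate and glutamate carrier, was higher by 1.46 ± 0.12 (SE) and Slc25a5, an ADP/ATP carrier, by 1.19 ± 0.09. Slc25a14 was lower (-1.13 ± 0.10), and Slc25a4, the other common ADP/ATP carrier, and the phosphate carrier Slc25a3 were not called. NSCs against neurons gave 5 higher and 3 lower, where 33.3% and 34.1% of all genes were called. The counts in yNSCs against NSCs were 1 higher and 0 lower, beside 21.3% and 18% of all genes.

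Of 12 genes for the synthesis and handling of coenzyme Q, which carries electrons to complex III, 7 rose and 2 fell in yNSCs against neurons, where 34.6% and 27.9% of all genes did. Coq10b was higher by 2.11 ± 0.11, Coq3, a methyltransferase of the pathway, by 1.78 ± 0.09 and Coq9 by 1.14 ± 0.13, whereas Coq2 and Coq4 were not called. The 2 lower genes were Coq8a (-0.93 ± 0.30) and Coq10a (-0.43 ± 0.12). NSCs against neurons gave 6 higher and 2 lower, beside 33.3% and 34.1% of all genes. The counts in yNSCs against NSCs were 3 higher and 1 lower, beside 21.3% and 18% of all genes. There 8 were not called and the median was 0.18.

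In markers of oligodendrocyte precursors the array means were 8.55 to 8.63 in neurons, 8.92 to 8.99 in NSCs and 7.63 to 7.74 in yNSCs. Markers of endothelial and mural cells averaged 4.67 to 4.85, 4.10 to 4.14 and 4.06 to 4.22 in the same order.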
